A study of Mus musculus with 2 samples.

Results

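The TRIM (tripartite motif) family was described in mouse bone marrow-derived macrophages. Its members were the genes with a symbol of Trim followed by a digit and with a transcript typed protein-coding, which gave 68 of the 55536 genes measured and 68 of 22028 protein-coding genes. Without the demand for a protein-coding transcript the pattern added only the pseudogene Trim30e-ps1, which had 0 counts in both libraries. Macrophages cultured from the bone marrow of C57BL/6J mice formed 1 group with 2 biological replicates, sequenced as polyA-selected RNA from whole cells. According to the sample descriptions they received Lipid A (100 ng/ml) for 12 h, were washed out for 12 h and received 100 ng/ml again for 300 min. In the treatment field the agent is instead called lipoprotein A, of type protein, and which name is right cannot be told from the labels. Sex and age were not collected, no genetic change is named, and both replicates carry the same donor identifier with separate biosample identifiers, so their spread may be smaller than that between animals. No untreated or once-treated sample was analysed here. The values below are therefore levels and differences between replicates, without a test of the treatment, and they do not show which genes responded to it.

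TRIM proteins typically carry a RING domain that passes ubiquitin from an E2 enzyme to a target, followed by B-box and coiled-coil parts and a C-terminal region that binds the target. Many members act in innate immunity, where they attach ubiquitin to sensors and adaptors, restrict viruses inside the cell or damp the signal again, and a number of them are described as induced by type I interferon, which macrophages make after exposure to bacterial lipid. Other members serve muscle, neurons, erythroid cells, germ cells or gene silencing, and a few, such as Trim14, Trim29 and Trim44, are described as lacking the RING. The symbol pattern leaves out relatives with other names, among them Pml, Mid1, Mid2 and Mefv.

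Reads assigned to genes came to 50503159 expected counts in replicate 1 and 46342331 in replicate 2. Where a gene is given 0 counts, up to 3 would be allowed, or 0.0594 and 0.0647 CPM (counts scaled to the library total), counting error only. Levels are deposited gene TPM, which are scaled for transcript length and library size, so genes can be compared with each other, and errors are the SD of the 2 libraries (n = 2). All 10 macrophage markers on a list of 10 stood at 10 TPM or more, from Mrc1 at 22.4 ± 1.73 TPM to Lyz2 at 10751 ± 649 TPM. The defining erythroid markers were near or at 0, with 6 of 9 at 0 counts in both libraries, and so were those of muscle (4 of 8) and neurons (3 of 5). Summed neutrophil markers differed between libraries, from 72.3 TPM in the first to 6.99 TPM in the second replicate, with Ly6g and Retnlg at 0 counts in both. Most of the sum was S100a9 at 37.85 and 2.23 TPM and S100a8 at 23.1 and 1.57 TPM. Camp was nearly level, at 0.62 and 0.55 TPM. Summed megakaryocyte markers were also higher in the first, at 260 against 118 TPM, most of it Pf4 at 256 and 116 TPM. In bulk RNA, fewer cells of a type and less RNA per cell cannot be told apart.

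A few members carried most of the family's RNA. In both libraries 35 of 68 members (51.5%) reached 1 TPM, 18 (26.5%) reached 10 TPM and 6 (8.82%) reached 100 TPM. Among all protein-coding genes the shares were 44.4%, 27.3% and 5.42%, so the share of TRIM genes at 10 TPM was close to the background. The Rnf genes, another group of RING ligases taken by symbol (85 genes), reached the same levels in 69.4%, 48.2% and 7.06% of cases. The median member stood at 1.40 TPM, the median protein-coding gene at 0.290 TPM and the median Rnf gene at 10.3 TPM. No count was recorded in either library for 22.1% of TRIM genes, 35.5% of protein-coding genes and 20.0% of Rnf genes. Summed over the family, the libraries held 1643 and 1763 TPM. The 5 highest members held 54.1% ± 0.965 of that sum and the 10 highest 80.5% ± 0.836.

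**Figure D1:**
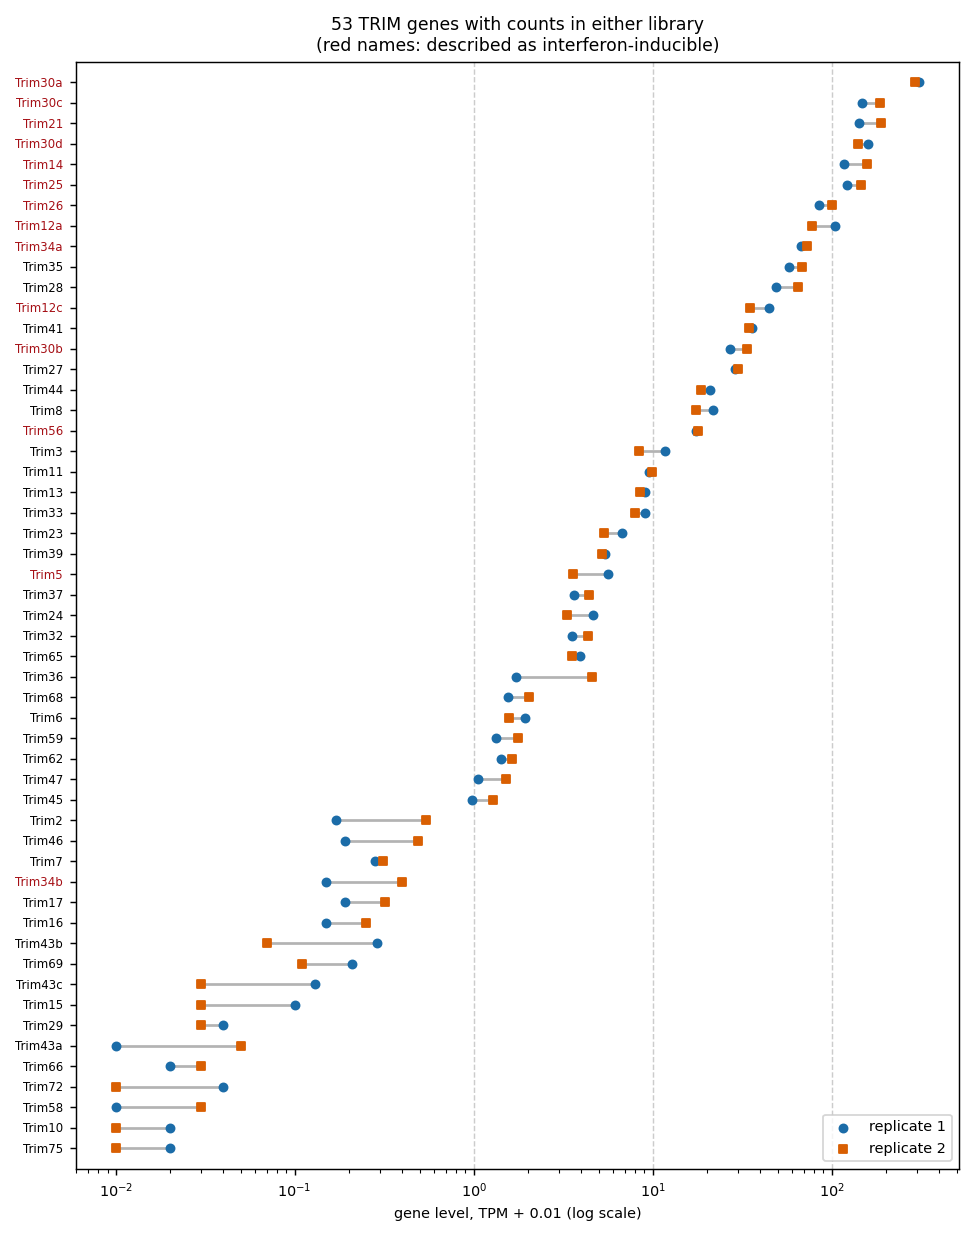
Level of each of the 53 TRIM genes with a count in either library, as TPM + 0.01 on a log axis, ordered by mean; circles are replicate 1, squares are replicate 2, and a grey line joins them. Dashed lines mark 1, 10 and 100 TPM, and 9 of the 10 highest genes have a red name, which marks the list described as interferon-inducible.

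Members of the interferon-inducible list filled the top of the family. Of its 15 genes, 13 reached 1 TPM, 12 reached 10 TPM and 6 reached 100 TPM, which are the 6 family members at that level. Together they held 82.3% ± 0.132 of the family's summed TPM (1350 and 1452 TPM). The other 53 members shared 17.7%, at 293 and 311 TPM. The list was drawn up from general knowledge with earlier results of these data known, so its place at the top is a description only. Its exceptions were Trim5 at 4.61 TPM, Trim34b at 0.265 TPM and Trim38, described as degrading the TAK1 adaptors TAB2 and TAB3, which had 0 counts in both libraries. In the second, separately made quantification Trim38 stood at 0.014 and 0 TPM.

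The highest member was Trim30a (chromosome 7, 104409025 to 104465193), described as a brake on Toll-like receptor signalling that removes TAB2 and TAB3. Its level was 309 and 292 TPM in replicates 1 and 2 (300 ± 11.9), above both values of every other member, and ranked 487th among protein-coding genes. Trim30c, a neighbour and close relative, followed at 148 and 186 TPM (167 ± 27.1). Trim21 (chromosome 7, 102557921 to 102565486), a cytosolic antibody receptor that sends antibody-coated virus to the proteasome, stood at 143 and 188 TPM (166 ± 32.1). Trim30d was at 160 and 140 TPM (150 ± 14.1). Trim14 (chromosome 4, 46493781 to 46536141), an adaptor of mitochondrial antiviral signalling, was at 117 and 158 TPM (138 ± 29.1). Trim25 (chromosome 11, 88999376 to 89020293), the ligase that activates the RNA sensor RIG-I, was at 122 and 145 TPM (134 ± 16.4). The ranges of Trim30c, Trim21, Trim30d, Trim14 and Trim25 overlapped in part, so their order is not fixed beyond the spread, although the same 6 genes led in both libraries.

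Much of this RNA came from 1 stretch of chromosome 7. The 10 genes from Trim6 to Trim30d lie within 289.1 kb (104218793 to 104507849), a group of mouse genes related to human TRIM5, TRIM6, TRIM22 and TRIM34 that has expanded by duplication. They summed to 868 and 842 TPM, or 50.3% ± 3.55 of the family, and 7 of the 10 reached 10 TPM. Levels differed widely between neighbours. Besides the 3 genes above, Trim12a stood at 104 and 77.4 TPM (90.6 ± 18.7), Trim34a at 67.8 and 72.8 TPM (70.3 ± 3.51), Trim12c at 44.8 and 34.9 TPM (39.9 ± 6.97) and Trim30b at 26.9 and 33.6 TPM (30.2 ± 4.72). The remaining 3 were low, with Trim5 at 5.61 and 3.60 TPM (4.61 ± 1.42), Trim6 at 1.93 and 1.56 TPM (1.75 ± 0.262) and Trim34b at 0.14 and 0.39 TPM (0.265 ± 0.177). Trim30a, Trim30d and the Trim12 pair lie on the minus strand beside Trim5, while Trim6, Trim34a and Trim34b lie on the plus strand, so high and low members occur on both strands.

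**Figure D2:**
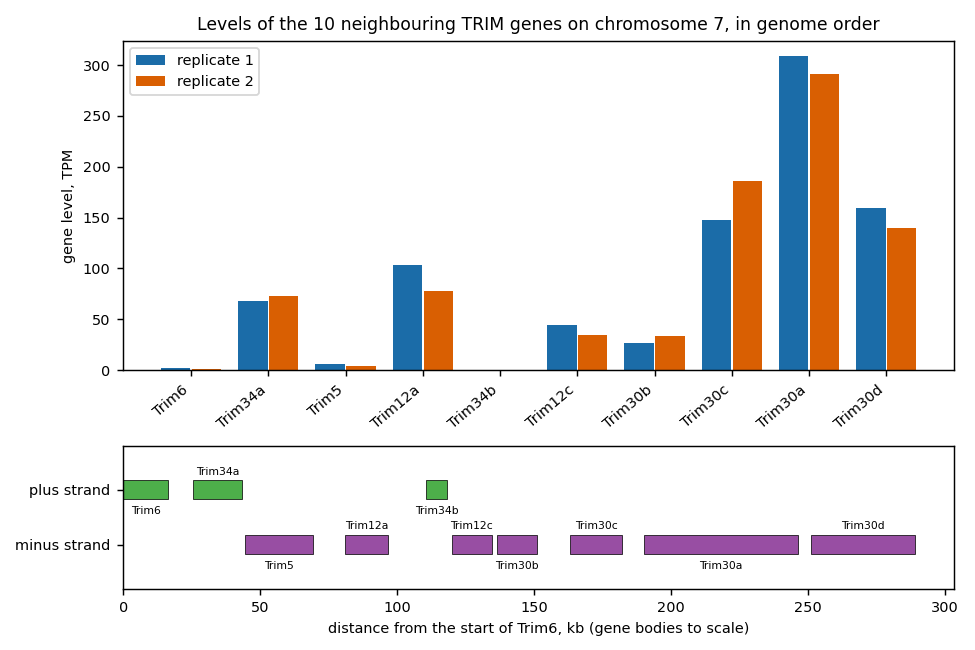
Upper panel, TPM of the 10 neighbouring TRIM genes of chromosome 7 in each library (bars from 0); lower panel, their gene bodies to scale by strand, in kb from the start of Trim6. Trim30a reaches 309 and 292 TPM, while Trim6, Trim5 and Trim34b barely rise above the axis.

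Near-identical copies limit what can be read from some of these genes. Of the 50-base words in the transcripts of Trim34a, 59.7% also occur in another gene, chiefly Trim34b, and 56.8% of those of Trim34b are shared in turn. The shares were 36.6% for Trim5 and 33.7% for Trim12c, which resemble each other, and 10.5% for Trim12a. For Trim30d and Trim30a they were 7.49% and 5.98%, and for Trim30c 0.660%. The split of reads between Trim34a and Trim34b, and among Trim5, Trim12a and Trim12c, thus rests in part on how the quantification assigned shared sequence. The level of Trim30c rests almost wholly on its own sequence. In replicate 1 the deposited posterior SD was 24.9 counts around 5666 for Trim34a and 0.94 around 6.62 for Trim34b. It was 3.13 around 687 for Trim5, 1.11 around 4077 for Trim12a and 2.9 around 5650 for Trim12c. Except for Trim34b these SDs were small beside the counts. In all, 14 of the 68 members shared 10% or more of their words with another gene, and 14 had fractional counts in either library. The members in these sets were not all the same. Some shared words came from overlapping genes rather than copies, as with Trim14 and Nans. Strand handling is not given in the sources used here. Trim14 shares 31.3% of its exonic bases with Nans on the opposite strand (15.6 and 17.9 TPM), and Trim34a shares 23.5% with the antisense gene Gm47248 (27.8 and 30.6 TPM), so reads of these pairs may not have been told apart.

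Some of the starts of the chromosome 7 genes carry letters of the kind that interferon-activated factors bind. The interferon-stimulated response element was searched as GAAA, then any 2 bases, then GAAA, on either strand, in RefSeq promoter windows of 250 bases before to 50 after each start (GRCm38.p6). On the strand of the gene, a match on the opposite strand reads as a pair of TTTC blocks. The stretches below show the highest member, its neighbour Trim30d with nearly the same letters, Trim5, and Trim30c, which lacks the match. Trim30c was the second highest member by mean level only. Capitals mark matching letters.
Trim30a: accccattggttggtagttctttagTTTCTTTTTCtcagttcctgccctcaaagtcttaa
Trim30d: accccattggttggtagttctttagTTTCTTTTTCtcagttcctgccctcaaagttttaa
Trim30c: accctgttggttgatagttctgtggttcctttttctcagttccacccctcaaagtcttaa
Trim5: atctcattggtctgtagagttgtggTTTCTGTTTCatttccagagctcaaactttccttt
They lie at chr7:104465195-104465254, chr7:104507856-104507915, chr7:104400881-104400940 and chr7:104288121-104288180, all on the minus strand and outside annotated exons.

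The Trim30c stretch equals that of Trim30a at 52 of 60 bases. Counted from 1 at the 5′ end of the Trim30a stretch, 8 substitutions separate them, and 1 of these, T28C, falls within the 10 letters of the match. Trim30c, with no match anywhere in its window, stood at 167 TPM, and Trim30a, with a match in both of its windows, at 300 TPM. Trim12a has the same 60 bases as Trim5, at chr7:104315451-104315510, and stood at 90.6 TPM against 4.61 TPM for Trim5. Counted from the RefSeq start, the match begins at 10 in Trim12a, whose stretch reaches into an annotated exon, and at -49 in Trim5. Both genes share words with other members, as given above, and the genes compared here were picked after their values were seen. Whether the letters bear on these levels was not tested. A match is only a description of the sequence and is not evidence of binding, and a window without one says nothing about the factor.

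Matches also occurred in the starts of Trim21, Trim34a and Trim12c, shown here as 30 bases around the letters because they reach into annotated exons. Trim21 holds 2 overlapping matches, printed as 1 run of capitals.
Trim21: ctgagagGAAACTGAAAGTGAAAtttggac
Trim34a: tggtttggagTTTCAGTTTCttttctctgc
Trim12c: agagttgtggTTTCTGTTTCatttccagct
These are at chr7:102565447-102565476 on the minus strand, chr7:104244457-104244486 on the plus strand and chr7:104353359-104353388 on the minus strand. Of the 53 members with a window, 9 (17.0%) held a match, against 4.02% of the 16522 protein-coding genes with a window. Those 9 are Trim30a, Trim21, Trim30d, Trim26, Trim12a, Trim34a, Trim12c, Trim5 and Trim2, and 6 of them are neighbours on chromosome 7 with related sequence, so they are not independent cases. By level, 7 of the 15 members at 10 TPM or more in both libraries had a match (46.7%) and 2 of the 38 lower ones (5.26%). The share among all protein-coding genes at that level was not counted, so whether it differs for TRIM genes cannot be told. By list, 8 of the 14 interferon-inducible members with a window had a match (57.1%), and outside that list only Trim2 did, 1 of 39 (2.56%). The list was drawn up from general knowledge with earlier results of these data known, so this contrast is a description only. The listed members with a window and no match were Trim25, Trim30b, Trim30c, Trim34b, Trim38 and Trim56. The window of Trim30b lies inside the gene, and the start of its leading transcript was not searched. For Trim38, with 0 counts, the transcript taken as leading also starts outside the window. No window was in the table for 15 members, among them Trim14, Trim35 and Trim8.

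**Figure D3:**
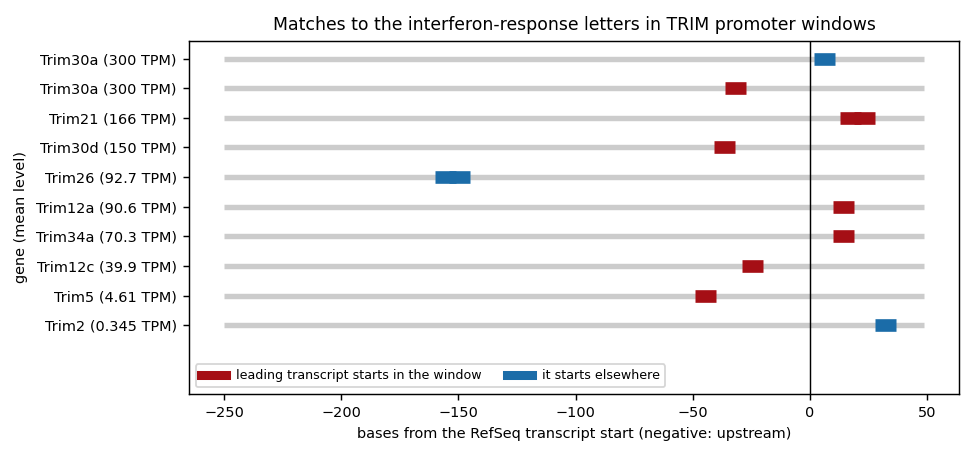
Position of each match to the interferon-response letters (coloured blocks) within the promoter windows (grey lines, 250 bases before to 50 after the RefSeq start at 0) of the 9 TRIM genes that have one, with the mean TPM in brackets. Trim30a has 2 windows, and in 7 of the 9 genes the leading transcript starts inside a window with a match (red).

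Among members grouped as acting in innate immune signalling, 15 of 19 reached 1 TPM and 8 reached 10 TPM. Besides Trim21, Trim14 and Trim25, these were Trim26, described as removing nuclear IRF3, at 84.6 and 101 TPM (92.7 ± 11.6) and Trim35, described as acting on IRF7, at 58.0 and 68.6 TPM (63.3 ± 7.48). Trim27, also called the RET finger protein, stood at 28.7 and 29.9 TPM (29.3 ± 0.877). Trim8, a ligase of TAK1, was at 21.6 and 17.4 TPM (19.5 ± 2.98), and Trim56, linked to antiviral signalling through STING and TRIF, at 17.35 and 18.01 TPM (17.7 ± 0.467). Trim26 overlapped only with Trim12a in level, and in the order Trim34a, Trim35, Trim28 each overlapped with the next. Below 10 TPM stood Trim11 at 9.69 ± 0.276 TPM, the endoplasmic reticulum ligase Trim13 at 8.78 ± 0.438 TPM, Trim23, Trim32, Trim65, Trim68 and Trim62. Trim31, described as marking the inflammasome protein NLRP3 for degradation, Trim40 and Trim38 had 0 counts, and Trim29, a RING-less member of epithelia, had 3 and 2.

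Gene-silencing cofactors of the TIF1 group were led by Trim28 (KAP1), the corepressor that zinc finger proteins bring to transposons with the methyltransferase SETDB1. Trim28 stood at 49.1 and 64.5 TPM (56.8 ± 10.8). Trim33, which acts on SMAD4, was at 9.02 and 7.94 TPM (8.48 ± 0.764), Trim24 at 4.64 and 3.32 TPM (3.98 ± 0.933) and Trim66 at 0.01 and 0.02 TPM, from 3 and 7 counts. The 4 levels were far apart, with no overlap between any of them in either library. Among members grouped under growth and other roles, 6 of 9 reached 1 TPM, led by Trim41 at 35.8 and 34.6 TPM (35.2 ± 0.849) and the RING-less Trim44 at 20.8 and 18.6 TPM (19.7 ± 1.57), with Trim16 lowest at 0.190 TPM. Trim3, a brain-enriched member, stood at 11.7 and 8.42 TPM. It carries NHL repeats, as do Trim32 at 3.52 and 4.34 TPM, Trim2 at 0.16 and 0.53 TPM and Trim71 with 0 counts.

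Most members listed under muscle, erythroid cells, brain and cytoskeleton, or germline and little-known roles stayed under 1 TPM in both libraries, with Trim36 as the exception. None of the 5 muscle members reached 1 TPM, and Trim54, Trim55 and Trim63 (the MuRF ligases of striated muscle) had 0 counts in both libraries. The highest of that list was Trim7 at 0.285 ± 0.0212 TPM. The erythroid members Trim10 and Trim58 had 1 count each over both libraries. Of the 4 brain and cytoskeleton members, Trim9 and Trim67 had 0 counts, Trim46 stood at 0.330 ± 0.212 TPM and Trim36 at 3.15 ± 2.03 TPM. None of 12 germline or little-known members reached 1 TPM, 6 of them had 0 counts, and the highest was Trim43b at 0.170 TPM from 16 and 3 counts. The marker lists of muscle, erythroid cells and neurons were also near 0, as given above, and germ cell markers were not examined. In all, 15 members had 0 counts in both libraries: Trim9, Trim31, Trim38, Trim40, Trim42, Trim50, Trim52, Trim54, Trim55, Trim60, Trim61, Trim63, Trim67, Trim71 and Trim80. Another 17 stayed under 1 TPM in both, and Trim45 reached 1 TPM in replicate 2 only.

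No other run of neighbouring members held as much RNA as that of chromosome 7 from Trim6 to Trim30d. A run of 6 members lies within 651.3 kb of chromosome 17, beside the major histocompatibility genes, and sums to 90.1 and 106 TPM, nearly all of it Trim26. In that run Trim39 stood at 5.33 ± 0.156 TPM, and Trim15, Trim10, Trim40 and Trim31 had 5 counts or fewer in each library. Trim21 and Trim68 lie 129.4 kb from end to end on chromosome 7, at 166 and 1.79 TPM. The 3 Trim43 genes of chromosome 9 summed to 0.400 and 0.120 TPM, and the run of Trim75, Trim60 and Trim61 on chromosome 8 held 1 count in all.

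RNA of enzymes that feed the ligases was present throughout. All 13 E1 and E2 genes on a list of ubiquitin-activating and ubiquitin-conjugating enzymes reached 1 TPM and 12 reached 10 TPM, with a median of 126 TPM. Of all protein-coding genes 44.4% and 27.3% reached these levels. This list and that of partners below were chosen with earlier results of these data known, so their levels are a description only. Ube2d3, a common E2 partner of RING ligases, was highest at 411 ± 1.24 TPM, and Ube2l6, the E2 of ISG15 and itself known as interferon-induced, was at 346 ± 29.1 TPM. Ube2n and its cofactor Ube2v1, which build lysine-63 chains, were at 187 ± 20.3 and 155 ± 2.10 TPM. The lowest was the E1 gene Uba6 at 7.81 ± 0.163 TPM. Of 19 matched partners and targets of TRIM ligases, all reached 1 TPM and 16 reached 10 TPM. Irf7 was highest at 2212 ± 164 TPM. The RIG-I gene Ddx58, target of Trim25, was at 255 ± 25.1 TPM, and the antiviral protein gene Zc3hav1, a partner of Trim25, at 131 ± 8.14 TPM. Vcp, which works with Trim21, stood at 192 ± 11.3 TPM. The Trim30a targets Tab2 and Tab3 were at 58.8 ± 0.764 and 3.41 ± 0.587 TPM, the latter the lowest of the list. Among relatives with other symbols, Pml, the nuclear body protein, stood at 78.4 ± 0.0919 TPM, the microtubule-bound ligase gene Mid1 at 59.6 ± 14.3 TPM, the pyrin gene Mefv at 32.6 ± 10.2 TPM and Mid2 at 0 and 1 counts.

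The libraries were then compared for each member that passed a filter on low counts, 40 of the 68. Differences are log2 ratios of CPM, replicate 2 over replicate 1, and with 1 library on each side they have no test. Of the 40, 2 (Trim36 and Trim2) were 2-fold or more apart, where 4.21% of all 12543 genes were. Both were higher in replicate 2, where 2.30% of all genes were 2-fold or more higher, and none was 2-fold or more higher in replicate 1, against 1.91% of all genes. Within 1.5-fold lay 37 of the 40 members (92.5%), 86.8% of all genes and 90.6% of Rnf members. The median member ratio was 0.04, with 20 members higher in each library. The 28 members that did not pass were all under 1 TPM in both libraries, so these counts leave out much of the low end of the family. None of the 13 E1 and E2 genes and none of the 19 partners was 2-fold apart.

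Trim36, a microtubule-binding ligase (chromosome 18, 46165300 to 46212607), had 257 counts in replicate 1 and 614 in replicate 2, or 1.72 and 4.59 TPM, a log2 ratio of 1.37. In the second quantification the ratio was 1.42. Trim2, a neuronal member with NHL repeats (chromosome 3, 84160439 to 84306877), had 41 and 77 counts, or 0.16 and 0.53 TPM, a log2 ratio of 1.02. It fell under the 2-fold line in the second quantification, at 0.56, and with a prior count of 5, at 0.94. In the same direction the summed level of 5 endothelial markers went from 15.7 to 49.3 TPM, with Kdr at 11.0 and 41.6 TPM and Vwf at 1.35 and 4.56 TPM, while Cdh5 stood at 1.38 and 0.87 TPM and Tie1 at 0.01 and 0.02 TPM. Their part in the difference was not tested. The largest ratio toward replicate 1 was that of Trim5, at -0.65 from 687 and 405 counts, and it shares words with Trim12c as given above. Among the 6 highest members the ratios ran from -0.22 for Trim30d to 0.42 for Trim21.

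**Figure D4:**
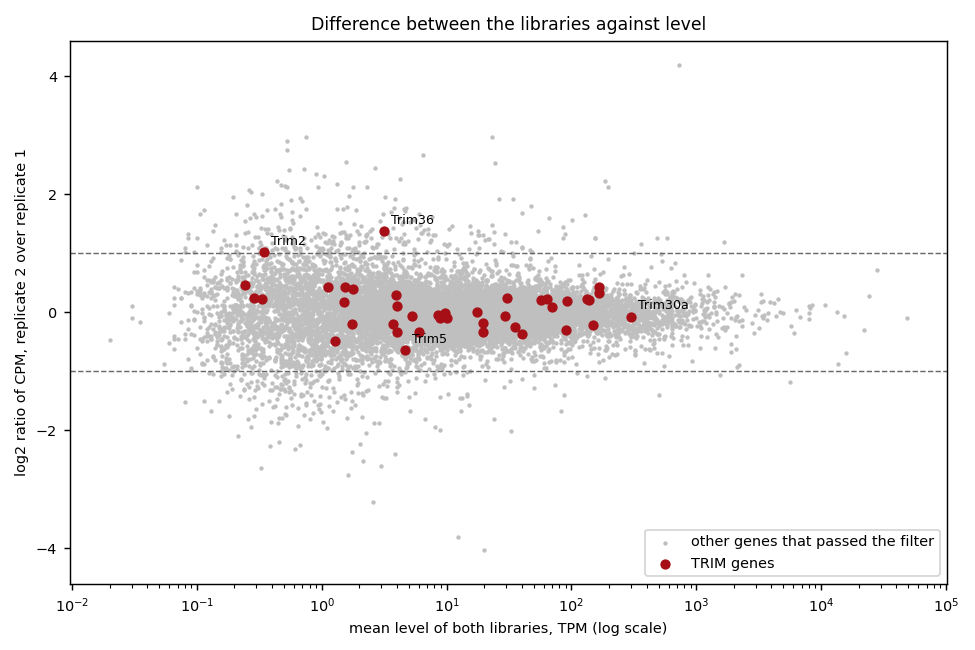
Log2 ratio of CPM, replicate 2 over replicate 1, against the mean TPM of both libraries on a log axis; grey points are other genes that passed the filter and red points the 40 TRIM members. Dashed lines mark 2-fold, and Trim36 (1.37) and Trim2 (1.02) lie above the upper line while Trim5 (-0.65) is the lowest member.

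The 2 deposited quantifications gave nearly the same levels for the family. Of 37 members at 1 TPM or more in either, 1 differed by 2-fold or more in mean TPM, where 2.19% of 10179 protein-coding genes did. That member was Trim52, with 0 counts in both libraries in the first quantification and 1.74 and 0.829 TPM in the second. Apart from Trim52, the log2 ratio of second over first ran from -0.39 for Trim28 to 0.28 for Trim3, with a median of 0.03. Trim30a stood at 322 TPM and Trim30c at 194 TPM in the second quantification, again the highest pair by mean level.

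Transcript shares separated members made of coding RNA from members with much other RNA. At a mean of 10 TPM or more, 18 members had several transcripts, and Trim30c had a single one. In the median member 99.0% of the summed transcript TPM lay in transcripts typed protein-coding, against 96.5% over 5906 such protein-coding genes. The share was 90% or more in 12 of 18 members (66.7%), against 67.6% of all, which is near the background. The leading transcript was not typed protein-coding in 2 members (11.1%), against 6.37% of all. Those were Trim26-209, a processed transcript with 44.8% ± 3.77 of Trim26, and Trim30b-202, a retained intron with 43.7% ± 6.01 of Trim30b. The retained-intron transcript of Trim30b is 3514 nt long and stood at 10.6 and 16.1 TPM, while the coding transcripts Trim30b-201 and Trim30b-204 stood at 8.21 and 7.05 TPM and at 4.31 and 7.36 TPM. The genes Trim30a and Trim25, by contrast, each had 99.0% of their TPM in 1 coding transcript.

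**Figure D5:**
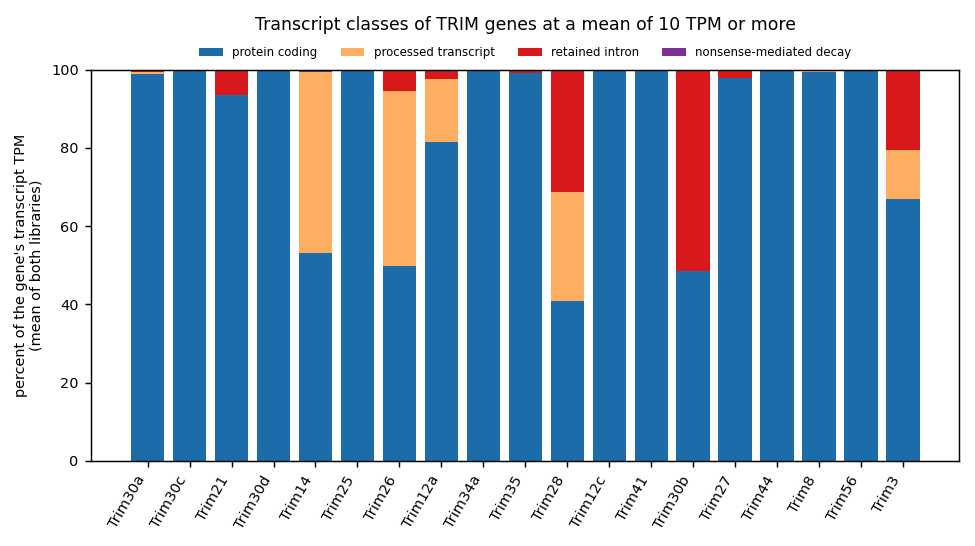
Percent of each gene's summed transcript TPM in each transcript type, as the mean of both libraries (bars from 0 to 100), for the 19 TRIM genes at a mean of 10 TPM or more, ordered by level. Most bars are almost wholly protein-coding, while Trim14, Trim26, Trim28, Trim30b and Trim3 hold large shares of processed or intron-retaining transcripts. These are shares of TPM, and the coding share of Trim3 was 92.5% by counts.

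Trim14 was the member whose leading transcript differed between libraries. Its coding transcript Trim14-201 was steady at 68.0 and 67.5 TPM, while the 670 nt processed transcript Trim14-204 stood at 36.7 and 81.8 TPM. In the second quantification Trim14-201 led in both libraries, at 77.0 and 71.3 TPM against 27.9 and 68.3 TPM. In the first, the coding share of Trim14 was 61.6% in replicate 1 and 44.3% in replicate 2, and its higher TPM in replicate 2 lies mostly in the noncoding transcript. Short transcripts weigh more in TPM than in counts. By counts, 75.5% of Trim14 was protein-coding, against 53.0% by TPM. In Trim28 the contrast was wider, with 81.3% of counts but 40.9% of TPM in its coding transcript Trim28-201. The 565 nt Trim28-203, a retained intron, held 26.0% of Trim28 in the first quantification and 2.06% in the second, so the level of that transcript depends on the quantification. Trim28-210, a processed transcript, stood at 10.2 and 22.3 TPM. For Trim30b the retained-intron types held 48.0% of counts and 51.6% of TPM, so there the choice of unit mattered less.

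In Trim34a a pair of coding transcripts was nearly level, Trim34a-203 at 49.6% ± 1.06 and Trim34a-201 at 45.9%, and in replicate 1 of the second quantification the latter led with 33.4 against 33.1 TPM. Trim26-209 kept the lead in the mean of the second quantification, at 30.9% against 29.7% for the coding Trim26-201, but in replicate 1 of that quantification Trim26-201 led with 24.9 against 21.7 TPM. Leading shares under 50% were also found in Trim30b and Trim28, as given above, and in Trim3, where Trim3-202 held 26.7% in replicate 1 and 67.4% in replicate 2. With 680 and 589 counts on the whole gene, Trim3 is the least deeply covered of these members. Of Trim3, 92.5% of counts but only 66.9% of TPM were protein-coding, so its other transcripts rest on few reads. Trim41 had 57.9% ± 5.94 of its TPM in Trim41-201 and most of the rest in Trim41-203, a coding transcript of 471 nt. In counts Trim41-203 was small, with 85.0 of 2656 in replicate 1 and 102.9 of 2064 in replicate 2. Trim41-201 held 2555 and 1952 of these counts.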

How the data were processed

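The members and gene lists were chosen with earlier results of these data known. For each library the authors deposited gene and transcript tables with expected counts, TPM and FPKM, per the file headers (the first quantification), together with posterior standard deviations of the counts, and a transcript table with estimated counts and TPM (the second quantification). The genome was mm10 and the annotation GENCODE M21, per the deposited notes. The name of the aligner, those of the quantifiers and any use of strand, not given in the sources used here, could affect overlapping genes. All 55536 gene identifiers matched GENCODE M21. Entries that are not genes took 0.0631% and 0.0676% of counts and were left out. Expected counts, rounded, were scaled with edgeR 4.0.16 (TMM, filterByExpr, prior count 0.5) in R 4.3.3. Called means 2-fold or more apart. The counts of the libraries differed beyond sampling noise (chi-square per degree of freedom 69.8), so they were not counted as 1 library deposited under 2 labels. This says nothing on whether they came from separate animals. The second quantification was summed over each gene's transcripts. Each member was described by its role list. Full values were given for the 20 highest members, the chromosome 7 and TIF1 groups and members 2-fold apart with a mean count of 10 or more, and for transcripts that led without being protein-coding, differed between libraries or quantifications or had the lowest leading shares. Trim30c, Trim5 and Trim12a were singled out for sequence after their values were seen. Shared sequence was counted as 50-base words of GENCODE transcripts. Promoter windows came from RefSeq (GRCm38.p6) for 53 of 68 members. Protein sequences were not used here, so the planned protein comparison was not run. The script for ratios was tested on simulated data. Alternatives were DESeq2 1.42.0 size factors, other filters, prior counts and units, the second quantification and each library alone. Python 3.11.15, pandas 2.3.3, NumPy 2.4.6 and matplotlib 3.10.9 were used.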

Additional observations from a re-analysis of the deposited data

How the results depend on the processing

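No paired analysis was possible because the series as used here holds 1 group. With 2 libraries there is no measure of the spread between animals. In the main setting 2 of 40 members were called 2-fold apart, and 4.21% of all genes. When genes of low count were kept, 12 of 53 members were called, and 27.8% of all genes. Only Trim36 was called among 35 members when a mean count of 100 was required (1.95% of all genes). It was also the only call among 40 with a prior count of 5 (3.35%) and on log2 of TPM plus 1 (1.44%). There were 3 of 43 in the second quantification (Trim36, Trim34b and Trim52), where 5.13% of all genes were apart. On log2 of TPM plus 0.1 there were 3 of 40 (Trim36, Trim2 and Trim46), and 4.03% of all genes. The family median was 1.40 TPM, and 1.00 in deposited FPKM. The 5 highest members held 55.9% of the summed TPM in the second quantification. The median coding share was 96.5% in the second quantification and 98.7% to 98.9% with each library alone. No direction reversed for a called member. Among members not called, Trim47 went from -0.49 in the main setting to 0.29 on log2 of TPM plus 1 and 0.49 on log2 of TPM plus 0.1. Ratios near 0 also changed sign, such as that of Trim27 from -0.07 to 0.06 on log2 of TPM plus 1. Of the results for single members, 16 moved by more than the replicate SD in the second quantification, and Trim2 lost its call there, while Trim34b and Trim52, which had not passed the filter in the first, were called. Depth limits members under 1 TPM, 6 of which had at most 3 counts in each library without being at 0 in both.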
